A study of Mus musculus with 6 samples.

Results

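The genes described here encode the proteins of the cytosolic ribosome. They were chosen by name, as protein-coding genes whose symbol is Rpl or Rps followed by a number and at most 1 letter a, x or l, together with Rpsa, Rplp0, Rplp1 and Rplp2. Of 52325 genes in the deposited table, 80 met the rule. They comprise 46 genes of the large subunit, 31 of the small subunit and the 3 genes of the stalk, Rplp0, Rplp1 and Rplp2. RNA was sequenced from cells of breast tumours of C57BL/6 mice with the genotype C3-T; Elf5-GFP, in which green fluorescent protein reports expression of Elf5, an ETS transcription factor of the secretory mammary lineage. All 6 libraries came from digested tumours, sorted with antibodies to CD45, CD31 and TER119 to enrich tumour cells, and split by GFP afterwards. The comparison is between 2 Elf5-positive (Elf5+) and 4 Elf5-negative (Elf5-) libraries. C3-T is not spelled out by the labels, which also give no age and name no animal. The p-values therefore measure the spread between these libraries, which may in part be technical.

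The sample titles carry a number and a T1 or T2 code whose meaning is not stated. Elf5-positive 1 shares its number with Elf5-negative 1 and 2, and Elf5-positive 2 shares its number with Elf5-negative 3 and 4. Both Elf5-positive libraries are T2, and so are Elf5-negative 2 and 4. Elf5-positive 1 with Elf5-negative 2 is called pair 1, and Elf5-positive 2 with Elf5-negative 4 is called pair 2. Library totals ran from 9106660 counts in Elf5-negative 4 to 53694884 in Elf5-negative 3. Elf5 itself was at 77.7 and 137 CPM (normalised counts scaled to library size) in Elf5-positive 1 and 2, and at 6.93 to 24.7 CPM in the Elf5-negative libraries (log2 fold change 3.04, SE 0.48, adjusted p = 0.0165, edgeR). Both Elf5-positive libraries lay above all 4 Elf5-negative ones, although the call was lost without Elf5-negative 1 (adjusted p = 0.0665), Elf5-negative 3 (0.0644) or Elf5-positive 2 (0.0573, all edgeR). SE is the standard error, CPM carry TMM factors, and a positive fold change means higher in Elf5-positive libraries.

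A ribosome has a small subunit that reads the message and a large subunit that joins amino acids, and each ribosomal protein is, as a rule, present once per particle. The stalk, which recruits elongation factors, holds more copies of Rplp1 and Rplp2. Ribosomal protein messages are known for a run of pyrimidines that begins with a C at their 5′ end, the terminal oligopyrimidine tract, through which mTOR and Larp1 control their translation. ETS-family factors bind sites with a GGAA core, which ribosomal protein promoters often contain. Because messages and proteins can be controlled apart, values here are of RNA only.

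Promoter windows are shown for this signature, since Elf5 is itself an ETS factor and the tract sets these messages apart. RefSeq promoters (build GRCm38.p6, 300 bases each) were matched for 60 of the 80 genes, and each printed window runs from 40 bases before to 20 bases from the annotated start onward. Capitals in the first set mark the pyrimidine run that begins with a C at the annotated start. The first is chr4:86857348-86857407 (minus strand), the second chr7:4792925-4792984 (plus), the third chr3:90213629-90213688 (minus) and the last chr7:141447611-141447670 (plus).
Rps6: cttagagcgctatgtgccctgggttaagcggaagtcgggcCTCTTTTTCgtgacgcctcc
Rpl28: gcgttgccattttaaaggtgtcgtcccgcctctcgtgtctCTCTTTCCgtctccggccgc
Rps27: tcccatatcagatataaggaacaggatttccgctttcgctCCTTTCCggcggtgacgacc
Rplp2: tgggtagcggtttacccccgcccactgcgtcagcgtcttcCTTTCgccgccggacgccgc

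A C followed by at least 4 C or T letters stood at the annotated start in 12 of the 60 promoters, or 20%, against 2.49% of 27025 promoters in all. In other members a run lies a few bases away from the annotated start and was not counted. The 7 letters CCGGAAG, searched on both strands of the 300 bases, occurred in 24 of the 60, or 40%, against 9.12% of all promoters. The next set shows this word in capitals, with CTTCCGG being the same word on the other strand. Their windows are chr4:136053374-136053433 (minus strand), chr12:28635934-28635993 (minus), chr9:66946046-66946105 (plus) and chr2:180257339-180257398 (plus).
Rpl11: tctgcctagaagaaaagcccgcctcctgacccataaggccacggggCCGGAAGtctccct
Rps7: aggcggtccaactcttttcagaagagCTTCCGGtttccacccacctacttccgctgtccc
Rps27l: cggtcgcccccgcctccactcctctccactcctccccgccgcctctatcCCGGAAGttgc
Rps21: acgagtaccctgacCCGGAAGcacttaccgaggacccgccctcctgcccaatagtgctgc

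The E-box CACGTG, a Myc-type word that reads the same on both strands, occurred in 5 of the 60 promoters (8.33%) and in 7.24% of all promoters. TATAAA, searched within 50 bases before the start on the gene's strand, occurred in 0 of the 60 and in 2.88% of all. Variants of this word were not searched, and a word after the annotated start, as in Rpl36a, was not counted. A match is a run of letters and not a measured binding site. The median log2 fold change, Elf5-positive over Elf5-negative, was 0.24 over the 12 genes with the tract and 0.30 over the 47 tested without it. It was 0.24 over the 24 genes with CCGGAAG and 0.30 over the 35 without. The difference between these medians was not tested.

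In RNA amount, ribosomal protein genes took more of the library in 1 of the 2 Elf5-positive libraries and not in the other. Their summed share of counts was 3.57% in Elf5-positive 1 and 2.30% in Elf5-positive 2. Among Elf5-negative libraries it was 2.08% in library 1, 2.59% in library 2, 2.56% in library 3 and 2.07% in library 4. Elf5-positive 2 thus lay inside the Elf5-negative range, and Elf5-positive 1 above it. Group means were 2.93% ± 0.902 (SD, n = 2) and 2.33% ± 0.291 (SD, n = 4), a ratio of 1.26, which is smaller than the distance between the 2 Elf5-positive libraries. Without Elf5-positive 1 the ratio was 0.987, and without Elf5-positive 2 it was 1.54. The 95% Wilson intervals of the shares, which cover counting error only, span at most 2.06% to 2.08%, in Elf5-negative 4, so counting depth is small beside the spread of libraries. In bulk RNA, a larger share of cells with many ribosomal protein messages and more such messages per cell cannot be told apart.

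**Figure D1:**
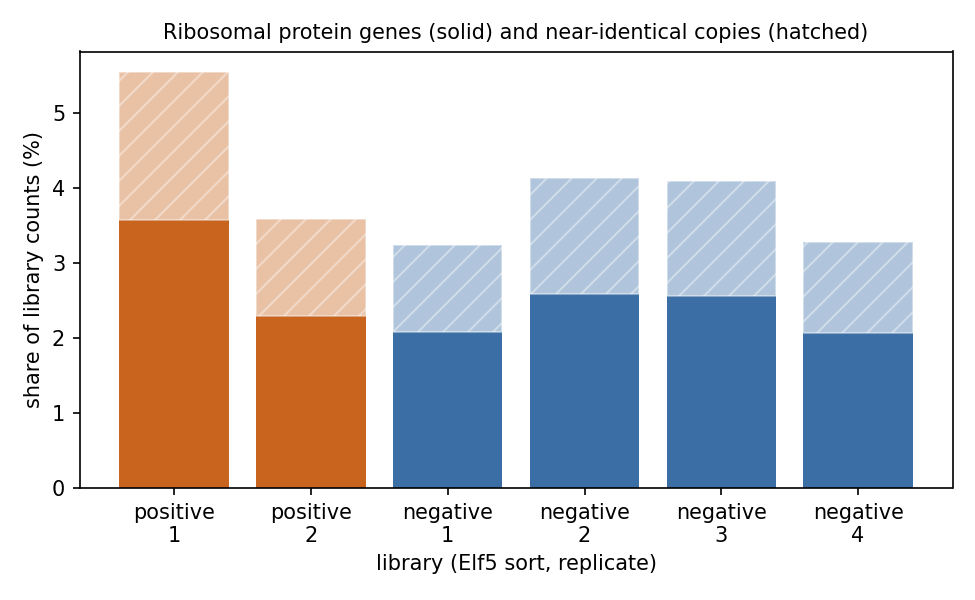
Share of each library's counts (vertical axis, %) in the 80 ribosomal protein genes (solid) and, stacked above, in their near-identical copies (hatched), for the 2 Elf5-positive (orange) and 4 Elf5-negative (blue) libraries. Elf5-positive 1 stands highest at 3.57% for the genes alone, and Elf5-positive 2, at 2.30%, lies between Elf5-negative libraries.

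The large and the small subunit moved together across libraries, whereas the summed share of the 3 stalk genes did not follow. Large-subunit genes held 1.98% and 1.24% of counts in Elf5-positive 1 and 2, and 1.15%, 1.38%, 1.30% and 1.07% in Elf5-negative 1 to 4. For small-subunit genes these shares were 1.35% and 0.837%, and 0.791%, 0.987%, 1.03% and 0.772%. Both subunits were highest in Elf5-positive 1 and lowest in Elf5-negative 4. Stalk genes held 0.236% and 0.218% in the Elf5-positive libraries, and 0.143%, 0.229%, 0.235% and 0.228% in the Elf5-negative libraries. Here 5 of the 6 libraries lay between 0.218% and 0.236%, and Elf5-negative 1 was lower. The sum does not stand for each stalk gene, since Rplp2 was highest in Elf5-positive 1. Elf5-negative 1 was also the lowest library in 28 of 79 members, so a low value there was not particular to the stalk.

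Most ribosomal protein genes have processed pseudogenes, and this limits what a single row means. A median of 96.9% of a member's coding 31-base words also occurred in transcripts of other genes. All such words did so in 32 members, and under 20% did so in 5, among them Rpl3l, Rpl8 and Rpl39l. Taking as a copy any related gene with at least 50% of a member's coding words, 66 members had 1 or more copies, 268 copy genes in all, of which 255 are annotated as pseudogenes. In 34 members the copies held more estimated counts than the member itself. The copies held 1.97% and 1.30% of counts in Elf5-positive 1 and 2, and 1.16% to 1.54% in the Elf5-negative libraries. Added to the members they gave 5.54% and 3.59% against 3.25%, 4.14%, 4.09% and 3.29%, a ratio of 1.24. So the order of the libraries hardly changed when copies were counted in.

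Rps27, a small-subunit zinc-finger protein (chr3:90212522-90213651), shows how far a row can be from the family's total. Its own row stood at 6.95 and 5.48 CPM in Elf5-positive 1 and 2, and at 7.62, 4.44, 4.84 and 9.15 CPM in Elf5-negative 1 to 4. Counted with its 1 copy, the retrogene Rps27rt, it stood at 429 and 475.1 CPM, and at 275.9, 302, 374.8 and 379 CPM. The row alone gave overlapping groups and a log2 fold change of -0.06, whereas the sum placed both Elf5-positive libraries above all Elf5-negative ones, with a log2 fold change of 0.44. Neither passed the test.

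No ribosomal protein gene passed the test between the groups. Of the 80 genes, 79 passed the filter on low counts, and the testis-type paralogue Rpl10l was at 0 counts in all 6 libraries. At an adjusted p below 0.05 (edgeR's quasi-likelihood test with Benjamini-Hochberg adjustment) 0 were called higher and 0 lower, where 4.37% of all 20684 genes tested were called, 0.585% as higher and 3.79% as lower. DESeq2 called 1 member lower, Rpl39l, beside 8.54% of genes, and limma-voom called 0 members of 5.19% of genes called. At an unadjusted p below 0.05, 1 member passed, against 5.2% of all genes as higher and 11.7% as lower. The lowest adjusted p among members was 0.120 (edgeR), for Rpl39l.

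The direction of the estimates was nevertheless uneven. Of the 79 genes, 73 had a log2 fold change above 0 and 6 below, where 53.3% of all genes tested were above 0. Their median was 0.30, beside 0.05 over all genes and 0.14 over the 631 genes whose average log2 CPM reached 8. The median was 0.31 over 45 large-subunit genes (42 above 0), 0.24 over 31 small-subunit genes (29 above 0) and 0.16 over the 3 stalk genes (2 above 0). These medians rest on Elf5-positive 1, since without that library the members' median was -0.13 and that of all genes -0.03. Without Elf5-positive 2 the members' median was 0.61. With copies summed into the members the median was 0.27 and 0 members were called, of 4.44% of genes called in that fit.

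The size of a difference that these data allow can be read from the intervals. Among the 77 members whose average log2 CPM reached 1, fold changes ran from -0.33 to 0.76 on the log2 scale and SE from 0.20 to 0.54. All 77 of the 95% intervals held 0. The median interval ran from -0.44 to 1.05, and in 44 genes the upper end lay above 1, a doubling. A rise of that size was therefore not excluded by the interval in these 44 genes, and no gene's lower end fell below -1.07.

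**Figure D2:**
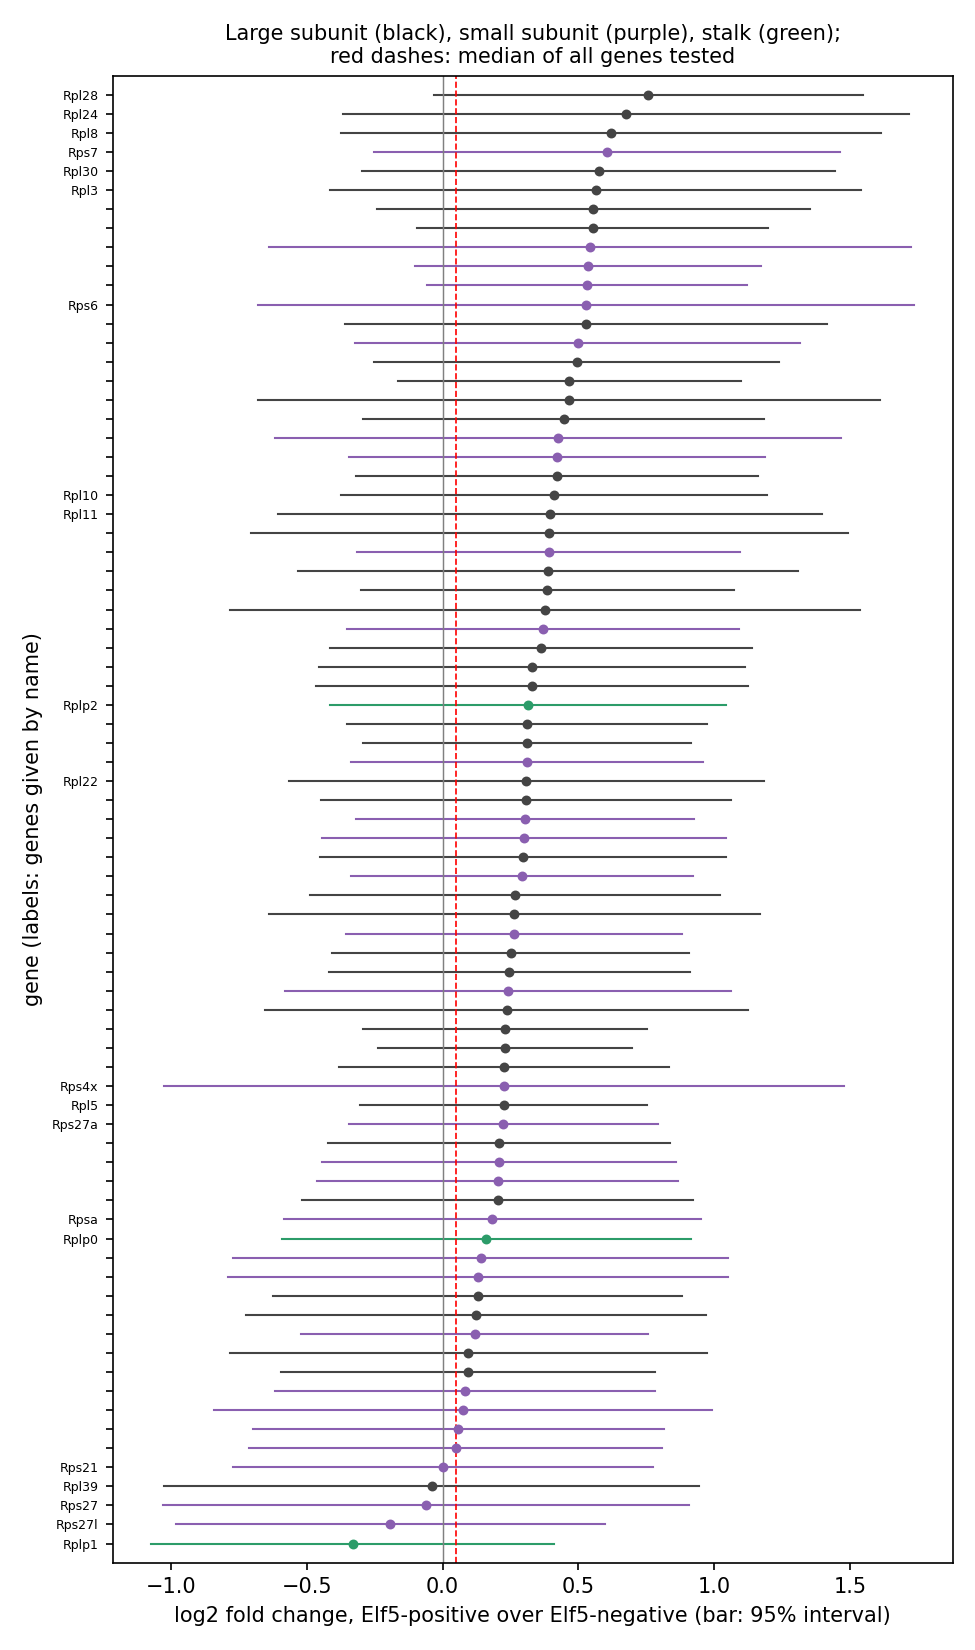
Log2 fold change of 77 ribosomal protein genes, Elf5-positive over Elf5-negative (horizontal axis), with 95% intervals, ordered by size, labelled for the genes given by name in the text, and coloured by large subunit (black), small subunit (purple) and stalk (green). Every interval crosses 0, from Rpl28 at 0.76 to Rplp1 at -0.33, and the dashed line marks the median of all genes tested at 0.05.

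Seen library by library, the members formed 3 levels. The median deviation of a member from its mean over the 6 libraries was 0.56 on the log2 scale in Elf5-positive 1, 0.12 in Elf5-negative 2 and 0.17 in Elf5-negative 3. In Elf5-positive 2 it was -0.20, in Elf5-negative 1 it was -0.27, and in Elf5-negative 4 it was -0.35. Elf5-positive 1 was the highest library in 61 of 79 members, which holds for 21.7% of all genes. Elf5-negative 4 was the lowest in 39, against 14.9% of all genes, and Elf5-negative 1 in 28. Elf5-positive 2 was highest in 2 members (22.3% of all genes), lay within the Elf5-negative range in 68, and was lowest alone in 7. For Rpl39l it tied with Elf5-negative 4 at 0 counts. No share over all genes was computed for the counts 28, 68 and 7, so these describe the members only. Only Rpl27, Rpl9 and Rps16 were higher in both Elf5-positive libraries than in every Elf5-negative one, 3 of 79 against 10.9% of all genes, and 0 were lower in both (14.8% of all genes). With copies summed the count was 6, against 10.9% of genes in that fit, among them Rpl9, Rps16 and Rps27. Rpl27 was no longer one of them, at 261.7 and 241.7 CPM beside 263.8 CPM in Elf5-negative 3. 

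**Figure D3:**
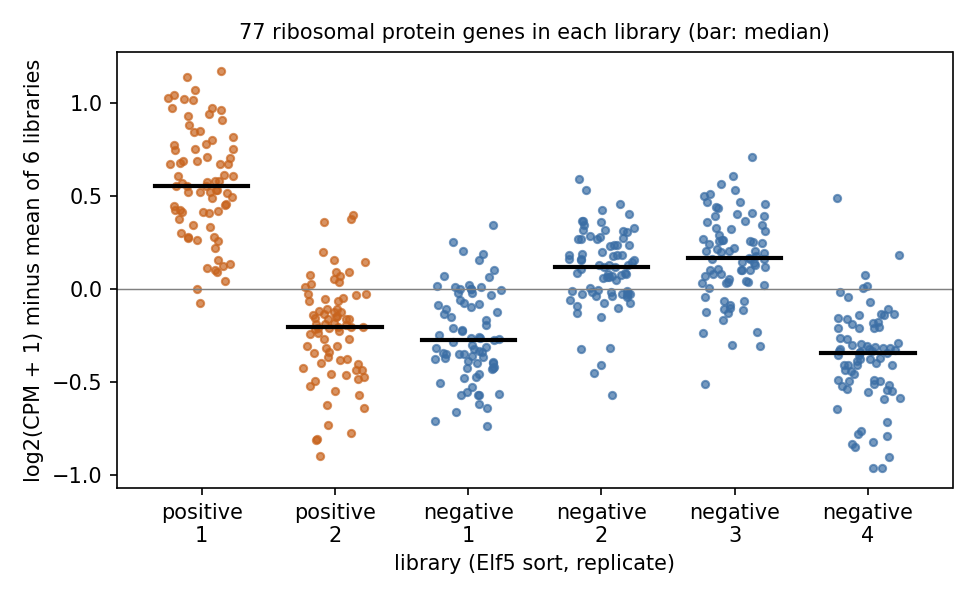
Each point is 1 of 77 ribosomal protein genes in 1 library, as its log2(CPM + 1) minus its mean over the 6 libraries (vertical axis), with bars at the medians. Elf5-positive 1 has the highest median, 0.56, and Elf5-positive 2, at -0.20, lies among the Elf5-negative libraries, which run from -0.35 to 0.17.

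Among large-subunit proteins, Rpl28 (chr7:4792874-4795066) had the largest estimate of the 77. It stood at 406.2 and 178.1 CPM in Elf5-positive 1 and 2, and at 157.3, 216, 168.7 and 149.4 CPM in Elf5-negative 1 to 4. Elf5-positive 1 was far above the rest, and Elf5-positive 2 lay below Elf5-negative 2. The log2 fold change was 0.76 (SE 0.34, 95% interval -0.03 to 1.55, adjusted p = 0.320, edgeR). Rpl8, a protein of the catalytic core with little sequence shared with other genes (chr15:76904078-76906314), read 1603 and 698.1 CPM, and 662.1, 1081, 781.1 and 470.7 CPM. Its Elf5-positive 2 value was also inside the Elf5-negative range, and the difference did not pass (0.62, SE 0.43, adjusted p = 0.561, edgeR).

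Rpl24, which sits at the face between the subunits (chr16:55966275-55971435), gave 182 and 59.1 CPM against 73.8, 92.7, 89.7 and 45.5 CPM. Rpl30 (chr15:34440505-34443640) gave 135 and 64 CPM against 58.4, 87.8, 78.4 and 42.5 CPM. In both genes Elf5-positive 1 was highest, Elf5-negative 4 lowest and Elf5-positive 2 in between. Their log2 fold changes were 0.68 (SE 0.45) and 0.57 (SE 0.38), neither past the test (adjusted p = 0.542 and 0.534, edgeR). Rpl3, a core protein near the catalytic centre (chr15:80077791-80091868), gave 552.2 and 243.6 CPM against 277.3, 352, 300 and 147.4 CPM (0.56, SE 0.42). These are estimates of own rows. With copies summed they were 0.35 for Rpl24, 0.51 for Rpl30 and 0.35 for Rpl3.

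Rpl5 and Rpl11 bind 5S rRNA and, when free, Mdm2, the ligase of p53. Rpl5 (chr5:107900502-107909005) was level in its own row, at 45.2 CPM in both Elf5-positive libraries and at 32, 39.5, 47.2 and 36.2 CPM in Elf5-negative 1 to 4. Rpl11 (chr4:136028265-136053428) gave 448.7 and 160.2 CPM against 236.8, 258.2, 285.7 and 144.6 CPM. In their own rows the partners thus differed, with Elf5-positive 2 low for Rpl11 and not for Rpl5. Most counts of the Rpl5 family lay in its copies, at 1139 CPM in Elf5-positive 1. With copies summed Rpl5 read 1184 and 792.1 CPM against 588.8, 875.1, 952.5 and 596.8 CPM. Rpl11 with its copies read 901.9 and 341.7 CPM against 458.3, 540.7, 583.4 and 296.1 CPM. Both sums were lower in Elf5-positive 2 than in Elf5-positive 1. For Mdm2 the estimate was -0.53 (SE 0.23, adjusted p = 0.296, edgeR).

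On the small subunit, Rps7 (chr12:28630854-28635953) gave 184.5 and 75.9 CPM against 73.7, 105.3, 98.8 and 64.2 CPM. Rps6, the substrate of S6 kinase whose phosphorylation is used as a readout of mTOR activity (chr4:86854660-86857412), gave 401.2 and 101 CPM against 185.8, 198.2, 213.8 and 97.8 CPM. In Rps6 the Elf5-positive libraries bracketed nearly the whole Elf5-negative range, so its interval was wide (0.53, SE 0.52, 95% interval -0.68 to 1.74). With copies summed the estimate was 0.38 for Rps6, and for Rps7 it was 0.40 beside 0.61 in its own row. Rps27a, made as a fusion with ubiquitin (chr11:29545846-29548109), gave 189.6 and 129.2 CPM against 142.4, 138.5, 152.7 and 112.4 CPM (0.22, SE 0.25). Rpsa, also known as the laminin receptor (chr9:120127689-120132369), gave 1622 and 1027 CPM against 978, 1534, 1216 and 936.4 CPM (0.18, SE 0.33). Rps21 (chr2:180257377-180258445), with means of 181.7 ± 50.2 (SD, n = 2) and 181.5 ± 54 CPM (SD, n = 4), had the estimate nearest to 0.

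The 3 stalk genes differed among themselves. Rplp0, the base of the stalk (chr5:115559467-115563727), stood at 1419 and 1438 CPM in Elf5-positive 1 and 2 and at 820.4, 1359, 1617 and 1318 CPM in Elf5-negative 1 to 4. Both Elf5-positive values were alike, and Elf5-negative 1 was the low one. Rplp1 (chr9:61913284-61914542) had the lowest estimate of the 77, at 452 and 342.6 CPM against 330, 564.4, 626.7 and 477.5 CPM (-0.33, SE 0.32, 95% interval -1.07 to 0.41, adjusted p = 0.697, edgeR). Rplp2 (chr7:141447370-141451585), its partner in the stalk dimer, gave 529.8 and 306.4 CPM against 253.8, 425.2, 323.5 and 342.2 CPM (0.31, SE 0.31). None of the 3 differed beyond its spread.

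Among paralogues that replace a standard protein in some tissues, Rpl39l and Rpl3l had few counts, whereas Rps27l did not. Rpl39l, a paralogue of Rpl39 best known from male germ cells (chr16:10170226-10174911), had 2 and 0 counts in Elf5-positive 1 and 2, and 96, 22, 94 and 0 counts in Elf5-negative 1 to 4. Elf5-negative libraries 1 to 3 held nearly all of it, and Elf5-negative 4, the shallowest, could hold up to 0.329 CPM at a count of 0. Pooled over libraries it was 71.5-fold higher in Elf5-negative counts (exact 95% interval 19.6 to 595, counting error only), and the log2 fold change of -5.64 (SE 1.69) did not pass (adjusted p = 0.120, edgeR). It passed without Elf5-negative 4 (adjusted p = 0.0358, edgeR), with no filter on low counts (0.0211, edgeR) and with DESeq2 (0.00386). Fibroblast markers, whose summed CPM was 1590 and 1163 in the Elf5-positive libraries and 19750 to 54310 in the Elf5-negative ones, were likewise higher in Elf5-negative libraries, Elf5-negative 4 included, and their part in the Rpl39l values was not tested. Standard Rpl39 (chrX:37082520-37085402) gave 161.8 and 65 CPM against 96.9, 132.2, 161.5 and 75.7 CPM (-0.04, SE 0.43).

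Rpl3l, the striated-muscle paralogue of Rpl3 (chr17:24727820-24736143), had 5 and 5 counts in the Elf5-positive libraries and 38, 8, 1 and 2 counts in Elf5-negative 1 to 4. Elf5-negative 1 held most of it. The summed CPM of 10 skeletal muscle markers was also highest there, at 249.1, against 5.57 to 48.5 in the other Elf5-negative and 8.50 and 14.9 in the Elf5-positive libraries, and its part in the Rpl3l values was not tested. Rps27l, a paralogue of Rps27 induced by p53 (chr9:66946086-66949516), gave 41.8 and 34.8 CPM against 26, 56, 55.5 and 37.5 CPM (-0.19, SE 0.34). Rpl22 (chr4:152325742-152334071) gave 380.5 and 178.6 CPM against 194.9, 263.6, 290.8 and 153.3 CPM (0.31, SE 0.38), and its paralogue Rpl22l1 had an estimate of -0.07 (SE 0.28). Rps4l, annotated as a pseudogene and so not counted, had -1.48 (SE 0.92, adjusted p = 0.507, edgeR).

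Among libraries that share a title number, ribosomal protein genes were higher on the Elf5-positive side in 3 of the 4 comparisons and lower in the fourth. In pair 1, 73 of 79 members were higher in the Elf5-positive library, with a median log2 ratio of 0.45, where 48.8% of all genes were higher and their median was -0.01. In pair 2, 62 of 79 were higher, against 51.4% of all genes, with a median of 0.15 beside 0.01. The same 62 were higher in both pairs, against 34.8% of all genes, and 5 were lower in both (Rpl12, Rpl3l, Rplp1, Rps21 and Rps27l). The share of counts in members was 1.38 times as large in Elf5-positive as in Elf5-negative cells in pair 1 and 1.11 times in pair 2. Each Elf5-positive library thus exceeded its T2 partner. Against the T1 library of the same number the directions parted. Elf5-positive 1 was higher than Elf5-negative 1 in 76 of 79 members (48.9% of all genes), with a median log2 ratio of 0.81 and a share 1.72 times as large. Elf5-positive 2 was higher than Elf5-negative 3 in 8 of 79 (53.2% of all genes), with a median of -0.33 and a share 0.896 times as large. The higher values of Elf5-positive 2 therefore hold beside Elf5-negative 4, the shallowest library, and not beside Elf5-negative 3. In an edgeR fit of the 4 T2 libraries with the pair as a block, 0 of 77 members were called, of 9.88% of genes called. There 18 members were higher at an unadjusted p below 0.05, against 10.7% of all genes, and the lowest adjusted p was 0.0546 (edgeR), for Rpl30 with a log2 fold change of 0.61. With 2 pairs the block rests on few libraries, and it was fitted only as an alternative. With the title number as a block over all 6 libraries, 0 members were called, of 6.11% of genes called.

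Members also differed between the pairs by chromosome. The mean log2(CPM + 1) of pair 1 minus that of pair 2, over 75 members with a mean of at least 20 CPM, had a median of 0.65, beside 0.05 for 8483 other genes. Centred on those medians, members on chromosome X (Rpl10, Rpl36a, Rpl39 and Rps4x) had a median of 0.62, and other genes of X had 0.44. On chromosome 15 (Rpl3, Rpl30, Rpl37 and Rpl8) the medians were 0.56 and 0.49, and on chromosome 4 (5 members, among them Rpl11, Rpl22 and Rps6) they were 0.51 and 0.43. At the other end, members on chromosome 5 had -0.59 beside -0.22, and Rpl17 and Rps14 on chromosome 18 had -0.98 beside -0.75. Across the 16 chromosomes with at least 2 members the medians of members and other genes had a Pearson correlation of 0.91 and a Spearman correlation of 0.85, with the same sign in 14. This describes 4 libraries, whose pairs differ in both sorts, and the points share those libraries.

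**Figure D4:**
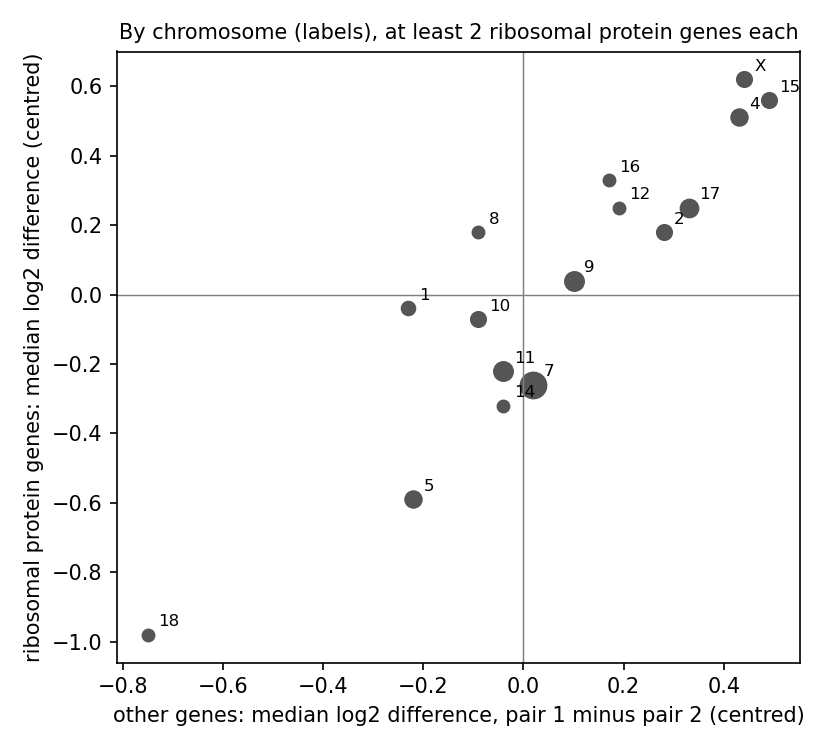
Each point is 1 of 16 chromosomes, with the centred median log2 difference, pair 1 minus pair 2, of other genes (horizontal axis) and of ribosomal protein genes (vertical axis), and larger points for more members. Chromosomes X, 15 and 4 lie at the upper right and chromosome 18 at the lower left, at -0.75 and -0.98.

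Rps4x, an X-linked small-subunit protein with almost no copies in these counts (chrX:102184941-102189394), is the clearest case. It gave 1820 and 507.5 CPM in Elf5-positive 1 and 2, and 1079, 1179, 1217 and 505.3 CPM in Elf5-negative 1 to 4. The libraries of pair 2 were the low ones, and were alike whichever the sort. Rpl10, on the same chromosome (chrX:74270812-74273135), read 122.5 and 55.9 CPM against 79.6, 70.8, 69.2 and 48.8 CPM in its own row. With its 8 copies it read 1537 and 642.9 CPM against 1023, 1191, 1220 and 650.2 CPM, the same order of libraries as Rps4x apart from the lowest places. By contrast Rps14 (chr18:60747098-60778546) gave 356.2 and 482.5 CPM against 277.7, 252.4, 615.1 and 377 CPM, with both libraries of pair 2 above those of pair 1. Of 268 combinations of a member and a copy, 252 had the copy on another chromosome. In 48 members whose copies reached 20 CPM, the pair difference of the copies and of the member's own row had a Pearson correlation of 0.81 and a Spearman correlation of 0.85, a description over genes that share libraries and reads.

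Lists of related genes were also highest in Elf5-positive 1 by share of counts, the regulators only narrowly, with none called. The 9 ribosomal proteins and partners outside the naming rule, such as Rps3a1, Fau and Rack1, held 0.424% and 0.340% of counts in Elf5-positive 1 and 2, and 0.300%, 0.310%, 0.296% and 0.284% in Elf5-negative 1 to 4. Here both Elf5-positive libraries lay above all others. At list level 0 of the 9 were called, and their median log2 fold change was 0.38. Rps27rt had 0.45 (SE 0.25) and Rps3a1 0.38 (SE 0.27).

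Translation factors with messages of the same terminal tract held 1.66% and 1.24% of counts against 1.28%, 1.38%, 1.33% and 1.12%. None of 17 was called, and the median log2 fold change was 0.24. Of the 17, 14 were highest in Elf5-positive 1, which holds for 21.7% of all genes. That count was 7 of 9 in the list above, 16 of 30 biogenesis factors, 46 of 78 mitochondrial ribosomal proteins and 4 of 16 regulators. Naca and Btf3, the nascent chain binding complex, had 0.56 and 0.39, and Eif3h, of initiation factor 3, had 0.54. Ribosome biogenesis factors held 0.425% and 0.344% against 0.307%, 0.365%, 0.275% and 0.312%, with 0 of 30 called and a median of 0.22. Of these, Fbl, the methyltransferase of rRNA, had 0.55, Gar1, of the pseudouridine complex, 0.53 and Wdr12, a large-subunit assembly factor, 0.36. Mitochondrial ribosomal proteins, which serve a separate ribosome, held 0.338% and 0.245% against 0.210%, 0.260%, 0.211% and 0.214%. A single gene of this list gave 525.4 and 15.2 CPM against 130.2, 307.6, 56.7 and 12.4 CPM, so these shares partly follow that gene. Counted gene by gene, 22 of the 78 were higher in both Elf5-positive libraries than in every Elf5-negative one, against 10.9% of all genes. None of 78 was called and the median was 0.25. At an unadjusted p below 0.05 (edgeR), 5 of the 78 passed, against 5.2% of all genes as higher and 11.7% as lower. Those of smallest p were Mrpl24 at 0.58, Mrpl47 at 0.62 and Mrpl51 at 0.64.

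Regulators of ribosomal protein synthesis had a median of 0.05, the same as all genes, and 0 of 16 were called. They held 0.147% and 0.135% of counts against 0.146%, 0.140%, 0.114% and 0.138%, so Elf5-positive 1 and Elf5-negative 1 were nearly level. Myc, which drives ribosome synthesis, gave 263.5 and 150.5 CPM against 266.2, 213.2, 190.8 and 142.5 CPM (0.03, SE 0.33, adjusted p = 0.981, edgeR). Mycn gave 6.97 and 12 CPM against 3.12, 2.43, 2.36 and 7.10 CPM (1.36, SE 0.53, adjusted p = 0.238, edgeR). Eif4ebp2, an inhibitor of cap-dependent initiation, had 0.30. Myc did not follow the sort. Its order of libraries departed from that of the members chiefly in Elf5-negative 1, where it was about as high as in Elf5-positive 1. The members' median deviation there was -0.27. Elf5-negative 4 was lowest for both, and a link between Myc and the members was not tested.

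Markers of cell types moved with the sort, and their levels stand beside every value above. Of 18 epithelial markers 9 were called higher and 0 lower, and their summed CPM was 8914 and 6119 in the Elf5-positive libraries and 2271 to 3884 in the Elf5-negative ones. Of 14 fibroblast markers 12 were called lower. Fibroblast markers and collagen genes together held 0.465% and 0.514% of counts in the Elf5-positive and 2.84% to 6.28% in the Elf5-negative libraries. When those genes were taken out of the totals, the ribosomal protein share was 3.59% and 2.31% against 2.16%, 2.67%, 2.73% and 2.13%, so Elf5-positive 2 still lay within the Elf5-negative range. Pericyte markers (5 of 9 called lower) and endothelial markers (3 of 12) were also lower, and macrophage, T and NK cell and erythroid lists had 0 called. Scaled to the epithelial markers in place of all genes, 61 of 79 members were called lower and 0 higher, where 57.6% of all genes were called lower and 0.0967% higher, with a median of -1.17 for members and -1.41 for all genes. Relative to all genes the members' shift was thus 0.24 in that scaling. The part of cell-type makeup in the members' values was not tested.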

How the data were processed

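RNA from 6 sorted tumour cell populations (2 Elf5-positive, 4 Elf5-negative) was analysed from whole-number estimated counts (expected counts) per Ensembl gene, which the authors deposited. The submitters' processing notes name Salmon and build GRCm38.p5. Its version and the annotation release are not stated there, in the labels or in the file header. Salmon divides reads between similar transcripts by model, which bears on genes with near-identical copies. Symbols were matched for 52220 of 52325 IDs, and gene positions came from GENCODE M21 (GRCm38).

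Analysis used R 4.3.3 with edgeR 4.0.16 (filterByExpr by group, TMM, quasi-likelihood test, no block, Benjamini-Hochberg over 20684 genes, call at 0.05), DESeq2 1.42.0 and limma 3.58.1 as alternatives, and Python 3.11.15. SE was obtained as log2 fold change over the square root of F, and CPM (TMM-scaled) are per library. The fit was tested on simulated counts, with 250 genes changed at each size. It called 226 of 250 at a log2 fold change of 3 and 182 of 250 at -3. At a log2 fold change of 1 it called 8 of 250, and at -1 it called 0 of 250, so doublings were mostly missed. Coding 31-base words were compared over annotated transcripts to find copies. Members, lists and alternatives were chosen with earlier results of these data known. Named members are the 5 highest and 5 lowest estimates whose average log2 CPM reached 1, stalk genes, Rpsa, paralogue pairs, Rps6, Rpl5, Rpl11 and Rps27a, and, of each companion list, up to 3 genes of smallest p, plus Myc. Rpl27, Rpl9, Rps16, Rps14, the unnamed mitochondrial ribosomal protein gene, genes listed by chromosome, and examples of copies were chosen after their values were seen. Counts with copies were an alternative added after seeing the data. Titles share numbers between sorts. The deviations of the T2 libraries from group means correlated at 0.502 and 0.555 within a number. For the T1 libraries, the values with the Elf5-positive library of the same number were 0.156 and -0.0261. With 2 Elf5-positive libraries their deviations mirror each other, so values across numbers are fixed as the negatives, -0.502 and -0.555. These correlations therefore cannot establish a pairing, and the labels do not say what the number marks. A few genes that the naming rule or the lists hold are not reported here by name.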

Additional observations from a re-analysis of the deposited data

Results flagged for a closer look

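Of 47 summed shares and named genes examined in the 4 Elf5-negative libraries, 2 had 1 library set apart from the other 3 by a large part of the whole range. Chance gives this in about 5% of such groups, so a count of 2 in 47 is near what chance gives. The stalk genes Rplp0, Rplp1 and Rplp2 held 0.143% of counts in Elf5-negative 1, below the 0.228% to 0.235% of the others. Mycn stood at 7.10 CPM in Elf5-negative 4, the shallowest library, above the 2.36 to 3.12 CPM of the others.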

How the results depend on the processing

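No member was called higher under any alternative run. Of the fits over all genes, 61 members were called lower when libraries were scaled to epithelial genes and 1, Rpl39l, with DESeq2 and with no low-count filter; the replicates left out singly gave 0 to 1. The members' median log2 fold change became -1.17 with epithelial scaling and ran from -0.13 to 0.61 with 1 library left out, and the share ratio from 0.987 to 1.54, the extremes being without Elf5-positive 1 and without Elf5-positive 2. With the replicate block of the title number 0 members were called and the lowest adjusted p was 0.107 (edgeR), and with the block on the T2 libraries it was 0.0546; pairing changed no member's call. Depth limits Rpl39l and Rpl3l most, with Elf5-negative 4 the shallowest.

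Epithelial scaling lowers every gene alike, so sign changes under it come from the scaling itself. The members' median stood 0.25 above that of all genes in the fit reported and 0.24 above it in that scaling. Rpl28 was -0.74, Rpl24 -0.82, Rpl8 -0.88, Rps7 -0.87, Rpl30 -0.90, Rps21 -1.44, Rpsa -1.29, Rplp0 -1.26, Rplp2 -1.16, Rpl3 -0.93, Rpl10 -1.09, Rps4x -1.27, Rpl22 -1.15, Rps6 -0.97, Rpl5 -1.21, Rpl11 -1.09 and Rps27a -1.25. In the same scaling Rps27rt was -0.99, Rps3a1 -1.09, Naca -0.92, Eif3h -0.93, Btf3 -1.08, Gar1 -0.97, Fbl -0.93, Wdr12 -1.11, Mycn -0.10, Eif4ebp2 -1.17, Mrpl24 -0.89, Mrpl51 -0.78, Mrpl47 -0.86 and Myc -1.48. Under other settings estimates near 0 changed sign, and the cause was not tested. On the T2 libraries Rpl39 was 0.13 and Rps21 -0.03, and with the block 0.05 and -0.04. Without Elf5-negative 1 and 2 together, Rps21 was -0.09 and Rplp0 -0.03. Rps27 was 0.04 with limma-voom, 0.44 with copies summed and 0.42 with copies summed and the T2 block, where Rps21 was -0.04. With no low-count filter Rps21 was -0.05 and Myc -0.02, and with the title block -0.01 and -0.00.

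With 1 library left out at a time, estimates that changed sign ran from -0.35 to 1.27 for Rpl24, -0.10 to 1.10 for Rpl8, -0.17 to 1.11 for Rps7, -0.06 to 1.01 for Rpl30, -0.24 to 0.15 for Rps27, -0.85 to 0.47 for Rpl39 and -0.31 to 0.25 for Rps21. They ran from -0.18 to 0.47 for Rpsa, -0.00 to 0.29 for Rplp0, -0.13 to 0.66 for Rplp2, -0.15 to 1.03 for Rpl3, -0.27 to 0.87 for Rpl10, -0.97 to 0.87 for Rps4x and -0.34 to 0.75 for Rpl22. For Rps6 the range was -0.79 to 1.20, for Rpl11 -0.53 to 0.95, for Rps27a -0.08 to 0.47, for Rpl22l1 -0.47 to 0.24 and for Myc -0.43 to 0.37. Of 23 named members, 14 changed sign without Elf5-positive 1. Leaving out an Elf5-positive library leaves 1 in that group, assumed to vary like the others. Elf5 lost its call without Elf5-negative 1 (adjusted p = 0.0665, edgeR), Elf5-negative 3 (0.0644) or Elf5-positive 2 (0.0573), and on the T2 libraries with no block.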
